A study of Mus musculus with 24 samples.

Results

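The 10 genes described here make fatty acids from acetyl-CoA, desaturate them and lengthen them. They are the regulators Srebf1 and Mlxipl, the synthesis genes Acly, Acaca, Fasn and Thrsp, the desaturase Scd1 and the elongases Elovl3, Elovl5 and Elovl6. They were chosen by name, with earlier results of these data known. All 10 were found by symbol among the 24218 genes listed in both deposited expression tables, 1 for whole liver and 1 for isolated hepatocytes. Polyadenylated RNA was sequenced from 24 samples of male mice aged 2 months, 3 biological replicates in each of 8 groups. The groups were whole livers or isolated hepatocytes of 4 genotypes. Wild-type (WT) mice were C57/BL6. IkkB KO mice were Alb-Cre+;IkkBf/f, Shp2 KO mice were Alb-Cre+;Shp2f/f, and Double KO mice were Alb-Cre+;IkkBf/f;Shp2f/f. In the knockouts Cre recombinase was driven by the albumin promoter, which is active in hepatocytes, so cells in which that promoter is silent keep both genes. No group carried Cre or the floxed alleles alone. The labels give neither the feeding state nor the hour at which tissue was taken, and they do not say whether livers and hepatocytes came from the same mice.

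Both tables hold 1 value per gene and genotype, made by the authors from the 3 replicates together. The values therefore carry no SD, and the depth of each sample is unknown. By the convention of Cuffdiff, the program that made the tables, a value is in FPKM, which scales fragments by transcript length and library size. The only test is the authors' own q-value. A gene is said to rise or fall where q was under 0.05, the authors' test status was OK and the value was at least 0.1 in 1 of the genotypes compared. Differences are given as log2(value + 1), the first genotype minus the second, and folds as the larger value over the smaller. The deleted genes were lower where the labels say so. Ikbkb, which encodes IkkB, was 15.7 in WT liver and 9.48 and 6.31 in IkkB KO and Double KO liver. Ptpn11, which encodes Shp2, was 12.5 in WT liver and 4.09 and 6.09 in Shp2 KO and Double KO liver. In hepatocytes Ikbkb was 17.3 in WT against 7.16 and 5.29, and Ptpn11 was 16.3 in WT against 4.46 and 5.77.

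In the liver, new fatty acids are built from the acetyl-CoA left over when sugar is plentiful. Acly cuts citrate to give acetyl-CoA in the cytosol, Acaca carboxylates it to malonyl-CoA, and Fasn joins malonyl-CoA units into palmitate. Elovl6 extends palmitate to stearate, Scd1 introduces the double bond that makes palmitoleate and oleate, Elovl3 lengthens saturated and monounsaturated chains, and Elovl5 lengthens polyunsaturated chains and palmitoleate. Srebf1 encodes SREBP-1, which carries the insulin signal to these genes, and Mlxipl encodes ChREBP, which carries the glucose signal. Thrsp encodes Spot 14, a small protein induced along with the pathway that acts with acetyl-CoA carboxylase.

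In Double KO liver the pathway's regulators and enzymes were low together: Srebf1, Mlxipl, Acly, Acaca, Fasn, Thrsp, Elovl3 and Elovl6 fell, by 1.42-fold (Acaca) to 4.39-fold (Thrsp), while Scd1 and Elovl5 did not pass. Of the 10 genes, 8 were thus called lower in Double KO than in WT liver and 0 higher, where 6.62% of the 12940 genes tested were lower and 11.5% higher. The median difference of the 10 was -0.88, against -0.03 over all genes tested. Against IkkB KO liver, 7 of 10 were lower in Double KO and 0 higher, beside 7.5% lower and 11.5% higher of all genes tested, with a median of -1.09. Against Shp2 KO liver, 5 of the 9 that could be tested were lower and 0 higher, beside 2.83% and 7.94% of all genes tested, with a median of -0.75. The single knockouts differed from WT liver in 1 gene each, and in both it was Elovl3. It was lower in IkkB KO liver, the only call in 10, where 2.17% of all genes tested were lower and 2.37% higher. It was higher in Shp2 KO liver, the only call in 9, where 5.23% of all genes were higher and 4.1% lower. The medians there were 0.11 and -0.17. Between the single knockouts, 2 of 9 genes were higher in Shp2 KO than in IkkB KO liver and 3 were lower, beside 5.43% and 4.84% of all genes, with a median of -0.53.

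In isolated hepatocytes the calls went in both directions, and only Srebf1, Mlxipl and Thrsp fell in the Double KO. In Double KO hepatocytes 3 of 9 genes tested were lower than in WT and 1 was higher, beside 4.56% lower and 9.04% higher of all genes tested. Their median difference was -0.44, against 0.01 over all genes tested. IkkB KO hepatocytes had 3 of 10 genes higher and 1 lower, beside 7.6% and 1.81%, with a median of 0.32. Shp2 KO hepatocytes had 3 of 10 lower and 0 higher, beside 4.53% and 7.13%, with a median of -0.20. In Double KO against IkkB KO hepatocytes, 5 of 9 genes were lower and 1 was higher, beside 5.62% and 5.75%, with a median of -0.79. In Double KO against Shp2 KO hepatocytes, 2 were lower and 2 higher of 9, beside 3.31% and 3.44%, with a median of -0.09. The comparisons against WT within a table share their WT samples and are not independent of each other. Shp2 KO and IkkB KO hepatocytes were not compared by test here, and their values stand side by side below. The tables were made separately, and no difference between liver and hepatocytes was tested.

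**Figure D1:**
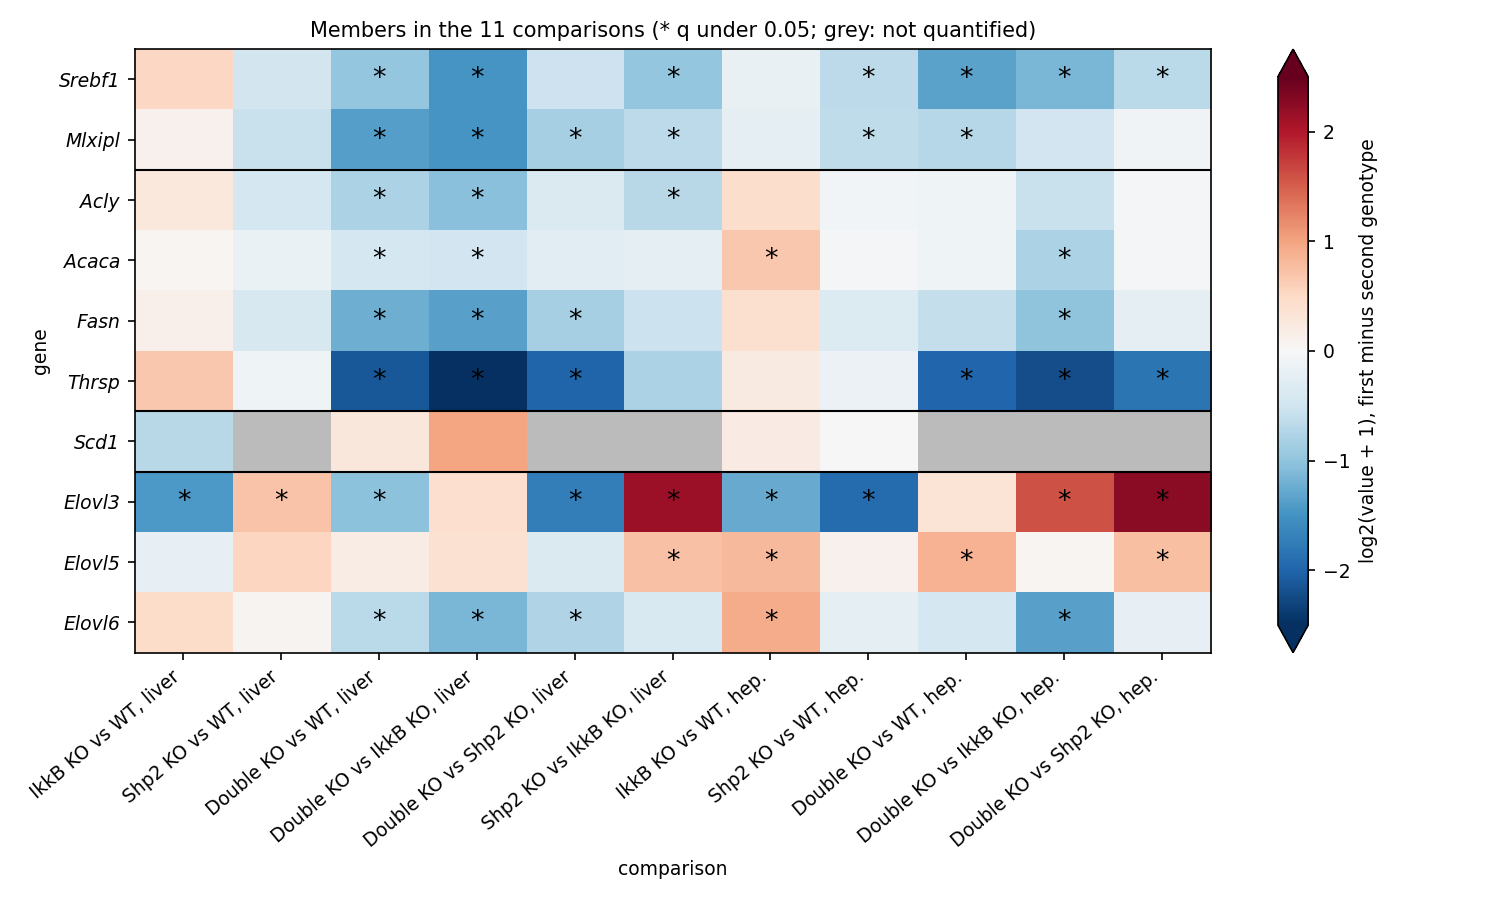
Difference in log2(value + 1) of the 10 genes (rows, with lines between regulators, synthesis genes, desaturase and elongases) in the 11 comparisons (columns), red where the first genotype was higher and blue where it was lower, with an asterisk where the authors' q was under 0.05. The liver columns of the Double KO are blue for 8 genes against WT, and the scale ends at 2.5, which Thrsp passed in Double KO against IkkB KO liver at -2.81.

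Markers of some other cell types also differed between these groups. Of the 5 hepatocyte markers that could be quantified, 0 were called in any of the 3 knockouts in liver. Their values in WT and Double KO liver were 9726 and 5731 for Ttr, 658 and 937 for Tat, 616 and 574 for Cps1, 223 and 232 for Apob and 201 and 166 for Hnf4a. Ttr was thus the marker with the largest difference, and the other 4 had both directions. In isolated hepatocytes 0 of these 5 markers were called in any knockout. There they summed to 11637 in WT, against 10983 (IkkB KO), 7360 (Shp2 KO) and 10341 (Double KO). Ttr was 8481 in WT and 4469 in Shp2 KO hepatocytes, and only Tat was above WT in Shp2 KO, at 1082 against 1028. All 7 macrophage markers were higher in Double KO liver, where they summed to 487 against 181 in WT, and 1 and 3 of them were higher in IkkB KO and Shp2 KO liver, with sums of 244 and 240. Stellate cell and fibroblast markers summed to 75.2 in WT and 153 in Double KO liver, with 3 of 6 higher. Endothelial markers summed to 70.6 in WT and 70.3 in Double KO liver, with 1 of 6 higher, and 2 of 6 were lower in Shp2 KO liver. Bile duct markers were lower for 2, 1 and 0 of 4 in IkkB KO, Shp2 KO and Double KO liver, and 0 were higher. In Shp2 KO hepatocytes 1 bile duct marker was higher and 1 lower, and in Double KO hepatocytes 1 was lower. In hepatocytes all 7 macrophage markers were higher than in WT in each knockout. Their sums were 75.3 in WT, against 238 (IkkB KO), 186 (Shp2 KO) and 232 (Double KO). Stellate cell and fibroblast markers were higher for 6, 3 and 4 of 6 in IkkB KO, Shp2 KO and Double KO hepatocytes, and endothelial markers for 6, 0 and 5 of 6. None of these macrophage, stellate or endothelial markers was at 0 in any genotype. Among the erythroid markers Alas2 was called lower in IkkB KO liver and in IkkB KO and Shp2 KO hepatocytes, while the globin genes Hba-a1 and Hbb-b1, at most 1.67 in hepatocytes, were not. Alb and Serpina1a, the other hepatocyte markers, were marked too abundant to be quantified in all genotypes. Adipocyte markers, which matter because fat cells also make fatty acids, summed to 5.78 in WT liver, 4.43 in IkkB KO, 0.919 in Shp2 KO, with Plin1 and Lep at 0, and 3.12 in Double KO, with Lep at 0. Their sums in hepatocytes were at most 0.418, with Lep at 0 in all 4 genotypes. The part of these cell types in the differences of the 10 genes was not tested. In bulk RNA, fewer hepatocytes and less RNA of a gene per hepatocyte cannot be told apart.

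Srebf1 fell in the Double KO in both preparations. Its value in liver was 100.1 in WT and 50.8 in Double KO, with 143 in IkkB KO and 72.9 in Shp2 KO. IkkB KO was the highest and Double KO the lowest. In hepatocytes it was 111 in WT, against 97.1 (IkkB KO), 69.8 (Shp2 KO) and 43.2 (Double KO). Double KO was again the lowest, and WT the highest. Double KO was 1.97-fold lower than WT in liver (log2 difference -0.96, q = 0.000955 in the authors' deposited table) and 2.57-fold lower in hepatocytes (-1.34, q = 0.00048 in that table). These 2 q-values are the smallest that each of the authors' deposited tables holds. Shp2 KO hepatocytes were 1.59-fold below WT (-0.66, q = 0.0269 in the authors' deposited table), while the 1.37-fold lower value in Shp2 KO liver was not called (q = 0.269). The Srebf1 call in Shp2 KO hepatocytes was lost when p-values were adjusted within the comparison. The higher value in IkkB KO liver did not pass either (1.43-fold, q = 0.175 in the authors' deposited table). Against IkkB KO, Double KO was 2.82-fold lower in liver and 2.25-fold lower in hepatocytes, with q at the smallest value of each of the authors' deposited tables. Against Shp2 KO, Double KO was lower in hepatocytes (1.62-fold, q = 0.0115 in the authors' deposited table) and was not called in liver (1.43-fold, q = 0.136). With adjustment within the comparison it was called in neither.

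Mlxipl followed a like order. In liver it was 159 in WT and 60.6 in Double KO, with 170.5 in IkkB KO and 108 in Shp2 KO. Hepatocytes had 88.1 in WT, against 74.4 (IkkB KO), 56.3 (Shp2 KO) and 53.0 (Double KO). The values ran lower in Shp2 KO and Double KO than in WT and IkkB KO in both tables. Double KO liver was 2.63-fold below WT (-1.38), 2.81-fold below IkkB KO (-1.48) and 1.78-fold below Shp2 KO (-0.82), each at q = 0.000955 in the authors' deposited table. In hepatocytes Double KO was 1.66-fold below WT (-0.72, q = 0.00499 in the authors' deposited table) and Shp2 KO 1.56-fold below it (-0.64, q = 0.0204). The Double KO and Shp2 KO hepatocytes differed by 1.06-fold (q = 0.854 in the authors' deposited table). The fall from Shp2 KO to Double KO was therefore called in liver and not in hepatocytes.

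The promoters of 8 of the 10 genes were in the RefSeq table for GRCm38.p6, with 11 transcription starts, and Scd1 and Elovl3 were not matched. The 250 bases before each start were searched on both strands for the CCAAT box (CCAAT, bound by NF-Y), the E-box (CACGTG, a core that bHLH proteins including ChREBP and SREBP-1 can bind) and 1 form of the sterol regulatory element (TCACNCCAC, a site of SREBP proteins). None of the 3 motifs contains another, although matches may overlap in a sequence. Srebf1, Mlxipl and Fasn are shown because these are 3 of the 5 genes that reached the smallest q in Double KO liver. Of their windows that overlap no annotated exon and hold a match, all but 1 of Srebf1 are printed. Srebf1 has 3 windows, of which 1 with a match is printed. Another holds 1 further CCAAT and is not printed, and 1 holds no match to any of the 3 motifs. The printed windows run 5′ to 3′ on the gene's own strand and end at the base before the start, with matches in capitals. A match is only a match of letters, since binding was not measured. The windows are Srebf1 at chr11:60210472-60210721 on the minus strand, 2 of Mlxipl at chr5:135089640-135089889 and chr5:135106641-135106890 on the plus strand, and Fasn at chr11:120824548-120824797 on the minus strand.
Srebf1: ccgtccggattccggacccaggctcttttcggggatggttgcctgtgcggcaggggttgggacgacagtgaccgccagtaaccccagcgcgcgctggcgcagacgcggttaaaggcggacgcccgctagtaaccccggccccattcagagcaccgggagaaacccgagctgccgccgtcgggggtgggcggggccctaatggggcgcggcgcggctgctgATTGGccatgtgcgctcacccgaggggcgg
Mlxipl, first start: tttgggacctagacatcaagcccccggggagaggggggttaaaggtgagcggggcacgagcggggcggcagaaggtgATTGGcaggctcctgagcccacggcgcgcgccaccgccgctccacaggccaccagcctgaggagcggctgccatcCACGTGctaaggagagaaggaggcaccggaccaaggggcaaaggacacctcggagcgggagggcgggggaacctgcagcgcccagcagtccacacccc
Mlxipl, second start: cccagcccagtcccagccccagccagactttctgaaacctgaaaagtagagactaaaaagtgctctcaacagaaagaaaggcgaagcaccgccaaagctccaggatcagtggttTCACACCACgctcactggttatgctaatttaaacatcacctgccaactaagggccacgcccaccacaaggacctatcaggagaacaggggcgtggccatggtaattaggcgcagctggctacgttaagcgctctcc
Fasn: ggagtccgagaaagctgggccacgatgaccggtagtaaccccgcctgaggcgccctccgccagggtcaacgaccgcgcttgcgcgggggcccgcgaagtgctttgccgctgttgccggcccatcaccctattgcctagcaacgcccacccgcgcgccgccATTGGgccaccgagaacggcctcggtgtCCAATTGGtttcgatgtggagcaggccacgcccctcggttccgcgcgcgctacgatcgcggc

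The Fasn window holds 3 matches to CCAAT, 2 of which overlap, and the printed Srebf1 window holds 1. The first Mlxipl window holds 1 CCAAT and 1 CACGTG, and the second holds the only TCACNCCAC found in the 11 windows. CCAAT was present in 6 of the 11 windows, those of 5 genes (Elovl5, Fasn, Mlxipl, Srebf1 and Thrsp), and in 33.8% of 32851 RefSeq windows of the same length. CACGTG was present in 2 of 11 windows (Elovl5 and Mlxipl) and in 6.02% of all windows, and TCACNCCAC in 1 of 11 and in 1.05%. None of the 3 motifs was found for all 8 genes.

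Among the synthesis genes, the enzymes Acly, Acaca and Fasn were called lower than WT in Double KO liver. Their values in Double KO hepatocytes also lay below WT but were not called. Acly, ATP citrate lyase, was 80.9 in WT liver and 46.3 in Double KO, with 96.8 in IkkB KO and 59.6 in Shp2 KO. Double KO was the lowest, 1.75-fold below WT (-0.79, q = 0.00732 in the authors' deposited table) and 2.09-fold below IkkB KO (-1.05, q = 0.000955). In hepatocytes Acly was 135 in WT, against 183 (IkkB KO), 128 (Shp2 KO) and 124 (Double KO). The IkkB KO value was the highest, but 0 of the 5 hepatocyte comparisons of Acly passed, with q from 0.108 to 0.949 in the authors' deposited table.

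Acaca, acetyl-CoA carboxylase 1, moved the least in liver of the 8 genes that fell. It was 7.58 in WT and 5.32 in Double KO liver, with 7.84 in IkkB KO and 6.61 in Shp2 KO. The fall in Double KO was 1.42-fold (-0.44), with q = 0.048 in the authors' deposited table, close to the threshold. In hepatocytes Acaca was 6.12 in WT, against 10.4 (IkkB KO), 5.85 (Shp2 KO) and 5.63 (Double KO). The IkkB KO value stood above the 3 others. It was 1.70-fold above WT (0.68, q = 0.00162 in the authors' deposited table) and 1.85-fold above Double KO (q = 0.00048).

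Fasn, fatty acid synthase, was 123 in WT liver and 52.0 in Double KO, with 135 in IkkB KO and 92.8 in Shp2 KO. Double KO was 2.37-fold below WT (-1.23) and 2.59-fold below IkkB KO (-1.36), both at q = 0.000955 in the authors' deposited table, and 1.79-fold below Shp2 KO (-0.82, q = 0.0152). In hepatocytes Fasn was 104 in WT, against 138 (IkkB KO), 81.4 (Shp2 KO) and 68.3 (Double KO). The genotypes had the same order as in liver. The difference between Double KO and WT did not pass in hepatocytes (1.52-fold lower, -0.60, q = 0.0814 in the authors' deposited table), while that between Double KO and IkkB KO did (2.02-fold lower, q = 0.00442).

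Thrsp had the largest fall from WT in the Double KO, of the 10 genes in liver and of the 9 with a value in hepatocytes. In liver it was 868 in WT and 198 in Double KO, with 1394 in IkkB KO and 801 in Shp2 KO. The hepatocyte value was 797 in WT, against 934 (IkkB KO), 715 (Shp2 KO) and 201 (Double KO). The single knockouts stayed at 715 or above in both tables, and both Double KO values were near 200. Double KO was 4.39-fold below WT in liver (-2.13, q = 0.000955 in the authors' deposited table) and 3.96-fold below WT in hepatocytes (-1.98, q = 0.00048). Against Shp2 KO it was 4.05-fold lower in liver and 3.55-fold lower in hepatocytes, at those same q-values of the authors' deposited tables. Thrsp was also abundant, at rank 94 of 13841 genes in WT liver and rank 98 of 12961 in WT hepatocytes with a value of at least 0.1. Neither single knockout was called against WT for Thrsp in either table. The nearest was IkkB KO liver, 1.61-fold higher with q = 0.0853 in the authors' deposited table.

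**Figure D2:**
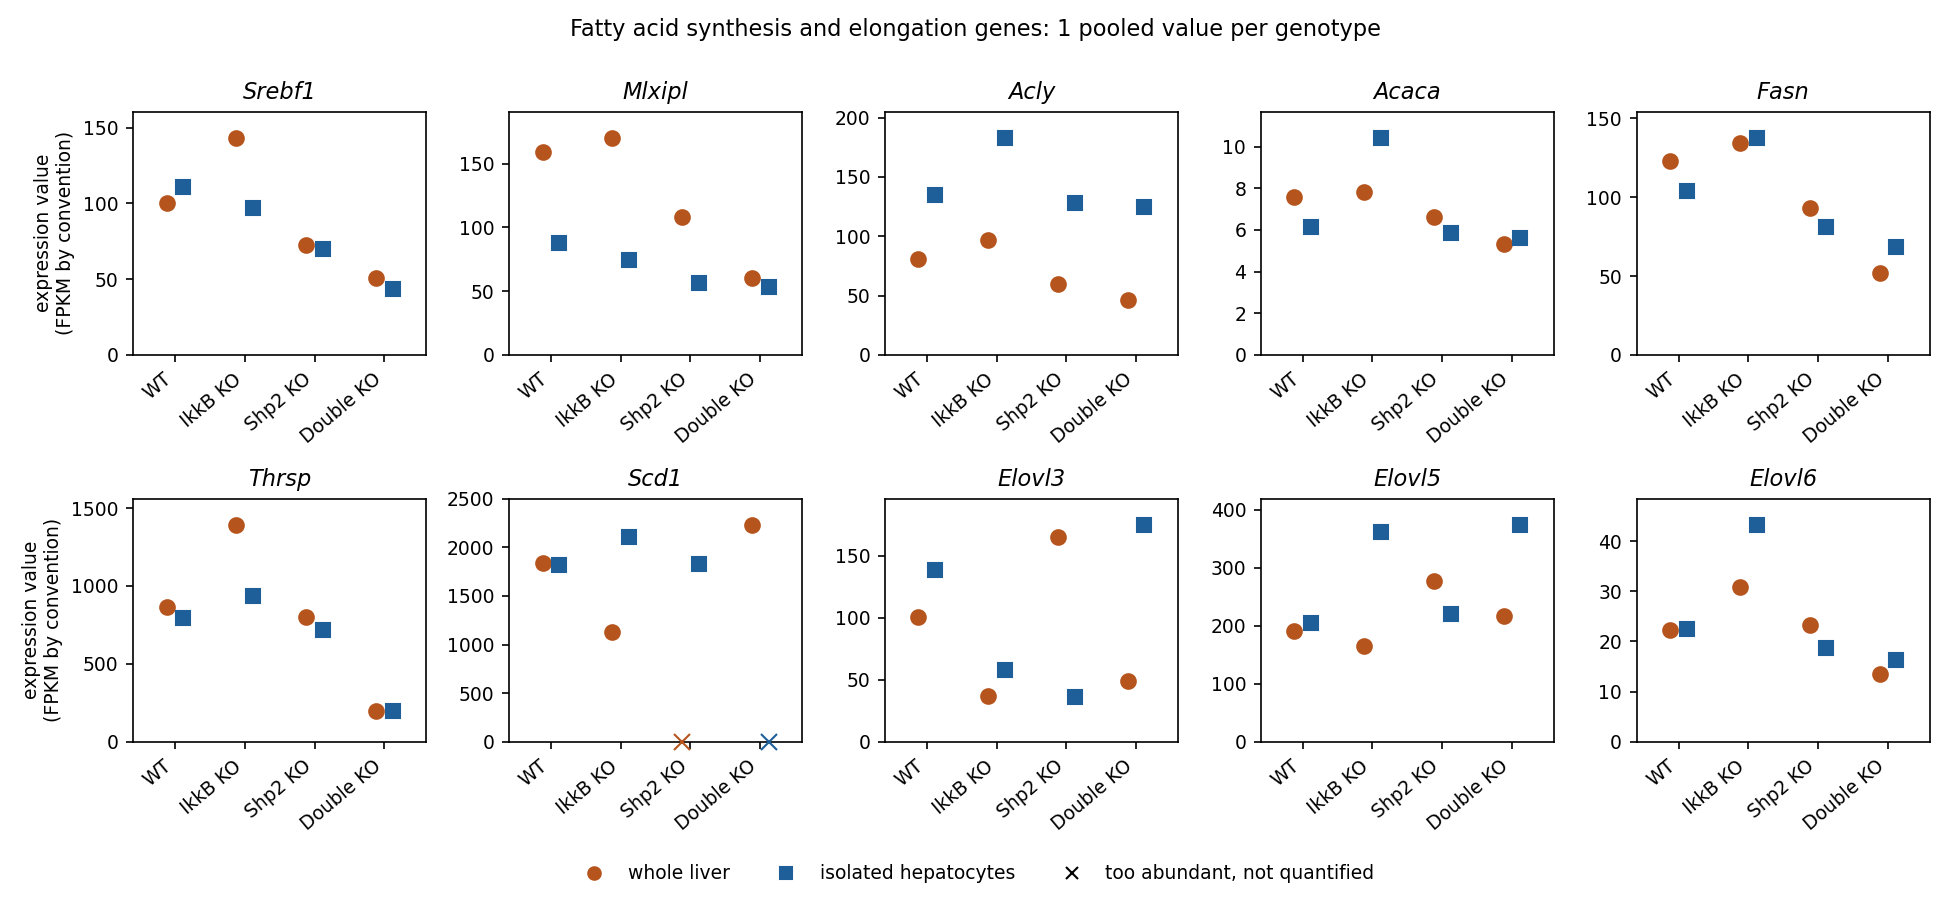
The 1 pooled value per genotype (vertical axis, from 0, on a scale of its own for each gene) of each gene in whole liver (circles) and isolated hepatocytes (squares), with crosses on the axis where Scd1 was marked too abundant to be quantified. Thrsp lies near 200 in Double KO in both preparations and at 715 or above elsewhere, while the order of the genotypes for Elovl3 differs between the preparations.

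Scd1, stearoyl-CoA desaturase 1, was the most abundant of the 10 genes in WT liver and WT hepatocytes and the only one never called. In IkkB KO liver Thrsp stood above it. It ranked 31 of 13841 genes in WT liver and 42 of 12961 in WT hepatocytes. Its values in liver were 1839 in WT, 1132 in IkkB KO and 2233 in Double KO. In hepatocytes they were 1822 in WT, 2100.02 in IkkB KO and 1830.2 in Shp2 KO. Shp2 KO liver and Double KO hepatocytes are listed at 0 with the status that marks a locus as too abundant to be processed, so those zeros are missing values and not low ones. In the 5 comparisons that remained, the folds ran from 1.005 to 1.97 and q from 0.119 to 0.996 in the authors' deposited table. The largest was Double KO against IkkB KO liver, 1.97-fold higher. Scd1 was thus not among the genes called lower in Double KO liver, where its value was 1.21-fold above WT with q = 0.862 in the authors' deposited table.

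The elongases did not move as a group. Elovl3 was called in 9 of the 11 comparisons, more than any other of the 10 genes. In liver it was 101 in WT and 49.0 in Double KO, with 36.6 in IkkB KO and 165 in Shp2 KO. Shp2 KO was the highest, and the genotypes that lack IkkB were the lowest. In hepatocytes it was 139 in WT, against 57.7 (IkkB KO), 36.1 (Shp2 KO) and 175 (Double KO). There both single knockouts were low, and Double KO was the highest. IkkB KO fell below WT in both tables, by 2.75-fold in liver (-1.44, q = 0.000955 in the authors' deposited table) and 2.41-fold in hepatocytes (-1.25, q = 0.00048). Shp2 KO rose in liver (1.63-fold, 0.70, q = 0.0104 in the authors' deposited table) and fell in hepatocytes (3.85-fold, -1.91, q = 0.00048). Double KO fell in liver (2.06-fold, -1.03, q = 0.000955 in the authors' deposited table) and was 1.26-fold above WT in hepatocytes without passing (q = 0.418). In hepatocytes Double KO was 3.04-fold above IkkB KO and 4.85-fold above Shp2 KO, both at q = 0.00048 in the authors' deposited table.

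Elovl5 was 191 in WT liver and 216 in Double KO, with 166 in IkkB KO and 277 in Shp2 KO. None of these differed from WT by the authors' test, although Shp2 KO was above IkkB KO (1.67-fold, q = 0.0109 in the authors' deposited table). The hepatocyte value was 205 in WT, against 362 (IkkB KO), 221 (Shp2 KO) and 374 (Double KO). The 2 genotypes that lack IkkB were high and the 2 that keep it were low. IkkB KO rose 1.77-fold over WT (0.82, q = 0.025 in the authors' deposited table) and Double KO 1.83-fold (0.87, q = 0.0187). With p-values adjusted within each comparison, the call in IkkB KO hepatocytes was lost and that in Double KO was not. The macrophage markers were higher than in WT in hepatocytes of all 3 knockouts. Endothelial markers were higher for 6 and 5 of 6 in IkkB KO and Double KO hepatocytes, in which Elovl5 rose, and 0 of 6 in Shp2 KO. In liver the endothelial markers summed to 70.6 in WT and 49.5 in Shp2 KO, where Elovl5 was highest without a call against WT. The part of these cell types in the rise of Elovl5 in hepatocytes was not tested. Elovl5 was the only 1 of the 10 genes called higher in the Double KO than in WT in either table.

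Elovl6 was 22.2 in WT liver and 13.5 in Double KO, with 30.9 in IkkB KO and 23.4 in Shp2 KO. Double KO was the lowest, 1.65-fold below WT (-0.68, q = 0.00315 in the authors' deposited table), 2.29-fold below IkkB KO and 1.73-fold below Shp2 KO (both q = 0.000955). Among hepatocytes it was 22.4 in WT, against 43.3 (IkkB KO), 18.8 (Shp2 KO) and 16.2 (Double KO). IkkB KO was the highest, 1.93-fold above WT (0.92, q = 0.00089 in the authors' deposited table) and 2.67-fold above Double KO (q = 0.00048). Double KO hepatocytes were 1.38-fold below WT, which did not pass (q = 0.133 in the authors' deposited table). Elovl6 and Acaca were thus the 2 genes that rose in IkkB KO hepatocytes and fell in Double KO liver.

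The Double KO was next set beside the 2 single knockouts added together, a description with no test because no replicate values were at hand. For each gene the differences of IkkB KO and Shp2 KO from WT were summed on the log2(value + 1) scale and subtracted from that of Double KO. In liver the result was below 0 for all 9 genes with values, from -2.69 for Thrsp to -0.15 for Elovl5, with a median of -0.92. Over 12348 genes the median was 0.02, and the middle 90% of genes lay between -0.61 and 0.63. Thrsp (-2.69), Elovl6 (-1.21), Srebf1 (-1.03), Fasn (-0.95) and Mlxipl (-0.92) lay below that range. Acly, at -0.614 against a lower end of -0.611, lay just below it. Acaca (-0.31), Elovl3 (-0.29) and Elovl5 (-0.15) were inside it. In hepatocytes the median was -0.49, against 0.01 over 11788 genes, of which the middle 90% lay between -0.68 and 0.55. There Thrsp (-2.05), Elovl6 (-1.12) and Acaca (-0.73) were below the range, and Elovl3 was far above it at 3.50. Fasn (-0.65), Srebf1 (-0.49), Acly (-0.48), Elovl5 (-0.06) and Mlxipl (0.16) were inside it. Thrsp and Elovl6 were therefore lower in Double KO than the sum of the single knockouts in both tables by more than most genes.

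**Figure D3:**
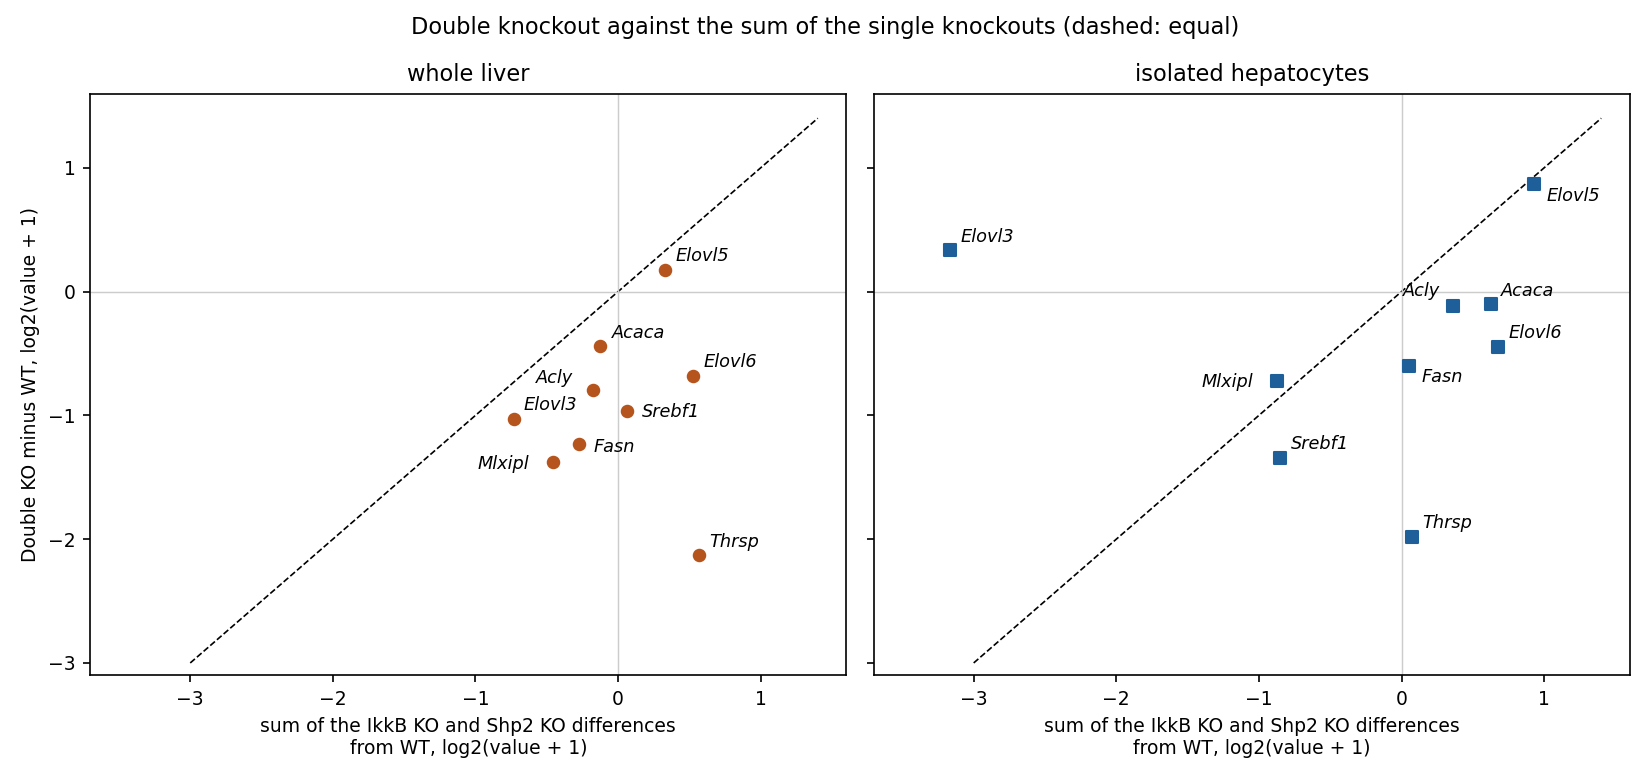
Double KO minus WT (vertical axis) against the sum of the IkkB KO and Shp2 KO differences from WT (horizontal axis), both on the log2(value + 1) scale, for the 9 genes with values in all 4 genotypes, in whole liver (circles) and isolated hepatocytes (squares). The dashed line marks equality. All 9 points lie below it in liver, and in hepatocytes Elovl3 lies above it by 3.50.

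Beyond the 10 genes, 47 further genes of the pathway were followed in 6 lists covering carbon and cofactor supply, malonyl-CoA and helper genes, other desaturases, other elongation genes, control of the regulators, and esterification. In Double KO liver 6 of 44 tested were higher than in WT and 7 lower, with a median of -0.06, so that calls went both ways. IkkB KO liver had 2 higher and 1 lower of 43, and Shp2 KO liver 8 higher and 2 lower of 43. In hepatocytes the counts were 4 higher and 1 lower of 43 for IkkB KO, 6 and 5 of 44 for Shp2 KO, and 3 and 6 of 43 for Double KO. The shares of all genes tested in these comparisons are those given above. The higher counts of Double KO liver and Shp2 KO hepatocytes include Elovl7, which met the filter only through its knockout value.

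Among the carbon supply genes Pklr fell in 4 of the 6 comparisons with WT and Me1 rose in 4. Pklr, liver pyruvate kinase and a known ChREBP target, was 234 in WT liver and 58.6 in Double KO, with 261 in IkkB KO and 122 in Shp2 KO. It fell in Shp2 KO (-0.94) and Double KO liver (-1.98), both at q = 0.000955 in the authors' deposited table. In hepatocytes Pklr was 172 in WT, against 265 (IkkB KO), 104 (Shp2 KO) and 96.8 (Double KO). It rose in IkkB KO (0.62, q = 0.0493 in the authors' deposited table), a call lost when p-values were adjusted within the comparison. It fell in Shp2 KO (-0.72, q = 0.0166 in the authors' deposited table) and Double KO (-0.82, q = 0.00294). Me1 also rose in IkkB KO hepatocytes, a call kept with that adjustment. Me1, malic enzyme, which supplies NADPH for synthesis, was not called lower than WT in any of the 6 comparisons. It was 49.4 in WT liver and 62.3 in Double KO, with 54.2 in IkkB KO and 134 in Shp2 KO, and rose in Shp2 KO (1.42, q = 0.000955 in the authors' deposited table). The hepatocyte value was 33.4 in WT, against 55.2 (IkkB KO), 73.3 (Shp2 KO) and 80.2 (Double KO), and rose in all 3, with q from 0.00048 to 0.00354 in the authors' deposited table. Acss2, which makes acetyl-CoA from acetate, was 89.1 in WT liver and 91.7 in Double KO, with 137 in IkkB KO and 168 in Shp2 KO. It rose in the 2 single knockouts (q = 0.03 and 0.000955 in the authors' deposited table), but in IkkB KO liver none of the pathway genes, Acss2 included, was called with adjustment within the comparison.

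Mid1ip1, the close relative of Thrsp, fell with it in the Double KO. It was 57.5 in WT liver, against 68.4 (IkkB KO), 44.4 (Shp2 KO) and 29.2 (Double KO), with a Double KO difference of -0.95 (q = 0.000955 in the authors' deposited table). In hepatocytes it was 63.2 in WT and 33.3 in Double KO, with 46.2 in IkkB KO and 39.4 in Shp2 KO, lower than WT in Shp2 KO (-0.67, q = 0.00527 in the authors' deposited table) and Double KO (-0.90, q = 0.00048). Acacb, the mitochondrial acetyl-CoA carboxylase that limits fatty acid oxidation, fell in Double KO liver from 11.95 to 7.27 (-0.65, q = 0.00379 in the authors' deposited table). Its Double KO hepatocytes were at 17.8 against 18.8 in WT (q = 0.866 in the authors' deposited table).

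Among the other desaturases Scd2 rose in 5 of the 6 comparisons with WT, all but IkkB KO liver. Scd2, the isoform best known from brain and other extrahepatic tissue, was 1.24 in WT liver, against 1.15 (IkkB KO), 3.54 (Shp2 KO) and 10.5 (Double KO). Hepatocytes had 0.565 in WT and 5.87 in Double KO, with 1.15 in IkkB KO and 3.65 in Shp2 KO. The Double KO was the highest in both, with differences of 2.36 in liver (q = 0.000955 in the authors' deposited table) and 2.13 in hepatocytes (q = 0.00048). With adjustment within the comparison the Scd2 call in IkkB KO hepatocytes was lost. The summed macrophage markers were 487 in Double KO liver against 240 in Shp2 KO liver, and 238, 186 and 232 in IkkB KO, Shp2 KO and Double KO hepatocytes. Stellate cell and fibroblast markers summed to 153 and 91.4 in those livers, and to 104, 51.1 and 55.8 in those hepatocytes. Of these, Col1a1 had the order of Scd2 in both preparations, with 20.7 in Double KO liver and 1.79 in Double KO hepatocytes. Dcn, Lrat, Des and Reln did not, being highest in IkkB KO hepatocytes at 84.8, 4.31, 1.98 and 6.37. Col3a1 had that order in liver but not in hepatocytes, where it was 6.16 in IkkB KO and 5.67 in Shp2 KO. The part of these cell types in the rise of Scd2 was not tested. Fads3, a fatty acid desaturase family member, rose in Shp2 KO and Double KO liver and in IkkB KO and Shp2 KO hepatocytes, the IkkB KO call being lost with adjustment within the comparison. Fads2, the delta-6 desaturase, was not called against WT in any of the 6 comparisons. Among the other elongation genes, Hacd1, a dehydratase of the elongation cycle, rose in Shp2 KO liver (10.05 against 5.89, q = 0.034 in the authors' deposited table) and Double KO liver (9.76, q = 0.048). Elovl7 was low throughout and was called higher in Double KO liver, at 0.369 against 0.0934 in WT (q = 0.00379 in the authors' deposited table). It was also called higher in Shp2 KO hepatocytes, at 0.497 against 0.0189 in WT (q = 0.0023). Both WT values were under the minimum of 0.1. Elovl7 thus met the filter only through the knockout, and no call in the other direction was possible.

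Of 12 genes that control the 2 regulators, 1 was lower in Double KO liver and 2 in Double KO hepatocytes, and 0 were higher, beside the 6.62% and 4.56% of all genes tested that were lower there. Scap, which escorts SREBP out of the endoplasmic reticulum, was 43.3 in WT and 28.8 in Double KO liver (-0.57, q = 0.0209 in the authors' deposited table) and 53.0 in WT and 34.4 in Double KO hepatocytes (-0.61, q = 0.0162). Mlx, the partner of ChREBP, was 28.1 in WT and 19.0 in Double KO hepatocytes (-0.54, q = 0.0364 in the authors' deposited table). Its lower value in Double KO liver, 19.5 against 28.8 in WT, did not pass (q = 0.0613 in the authors' deposited table). With adjustment within each comparison both turned round, Mlx being called in Double KO liver and not in Double KO hepatocytes. Insig2, which holds SREBP in the endoplasmic reticulum, was 45.1 in WT and 31.1 in IkkB KO liver (-0.52, q = 0.0444 in the authors' deposited table, lost with adjustment within the comparison), and 97.6 in WT and 49.6 in Shp2 KO hepatocytes (-0.96, q = 0.00089). The other 9 genes of this list were not called against WT in either table.

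The esterification genes, which place fatty acids into triglyceride, had both directions. Lpin1, a phosphatidate phosphatase, was 76.9 in WT liver, against 109 (IkkB KO), 55.5 (Shp2 KO) and 34.98 (Double KO). The hepatocyte value was 88.9 in WT and 23.7 in Double KO, with 97.6 in IkkB KO and 37.1 in Shp2 KO. It fell in Double KO in both tables (-1.12, q = 0.000955 in the authors' deposited table for liver, and -1.87, q = 0.00048 in that for hepatocytes), and in Shp2 KO hepatocytes (-1.24, q = 0.00089). Its relative Lpin2 rose in all 3 knockout livers, from 36.2 in WT to 56.9 (IkkB KO), 82.3 (Shp2 KO) and 69.0 (Double KO), with q from 0.000955 to 0.0209 in the authors' deposited table. The Lpin2 call in IkkB KO liver was lost with adjustment within the comparison. In hepatocytes Lpin2 was called against WT only in Shp2 KO, where it was higher, at 80.7 against 45.1. Dgat2, which makes triglyceride from diacylglycerol, fell in the Double KO from 317 to 184 in liver (q = 0.00175 in the authors' deposited table) and from 309 to 164 in hepatocytes (q = 0.00263). Pnpla3, a lipase-like protein of lipid droplets, was low throughout, at 1.22 in WT, 0.172 in Shp2 KO and 0.418 in Double KO liver, where both fell (q = 0.000955 in the authors' deposited table). In hepatocytes it was called against WT only in Shp2 KO, where it was lower, at 0.232 against 0.528.

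**Figure D4:**
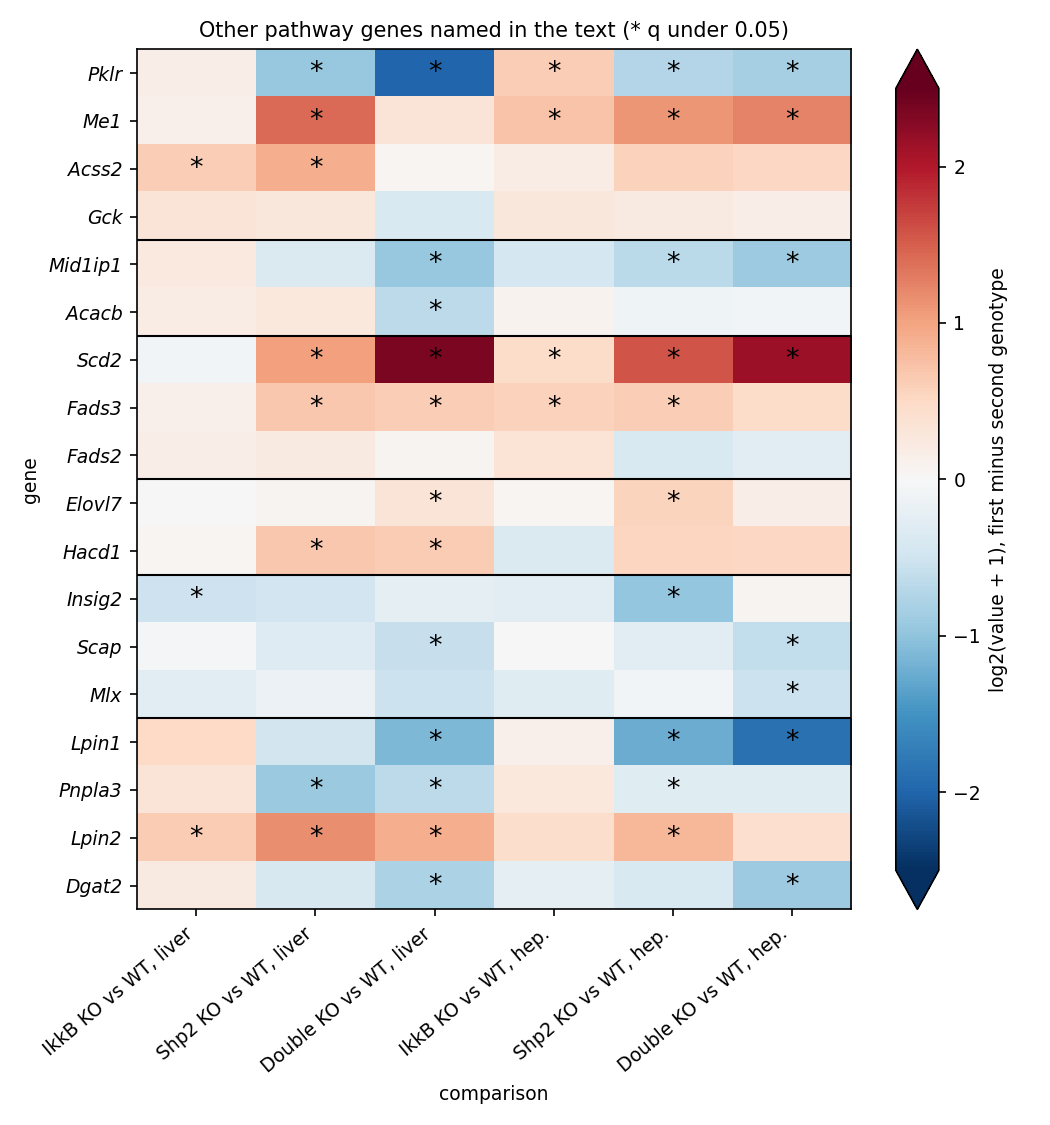
Difference from WT in log2(value + 1) of the 18 other pathway genes chosen by the naming rule (rows, with lines between the 6 lists) in the 6 comparisons with WT (columns), red where the knockout was higher and blue where it was lower, with an asterisk where the authors' q was under 0.05. Scd2 is red at 2.36 and 2.13 in Double KO liver and hepatocytes, and Pklr is blue at -1.98 in Double KO liver.

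The genes whose pattern was most like that of the members called most often were found by the root mean square distance over the 6 differences from WT, among 4368 genes with a value of at least 10 in both WT groups, as a description. The nearest to Elovl3 was G0s2, an inhibitor of triglyceride lipolysis, at 0.59, followed by C6 at 0.65 and Alas2, a heme synthesis gene listed among the erythroid markers, at 0.73, where the median gene was at 1.21. None of the 8 other members with values in all genotypes was as near, the closest being Mlxipl at 1.14. The nearest to Srebf1 were Ngef at 0.18, the urea cycle gene Arg1 at 0.18 and Mid1ip1 at 0.24, with the median gene at 0.76. The nearest to Mlxipl were AI317395 at 0.12, Ido2 at 0.13 and the creatine synthesis gene Gamt at 0.14, with the median gene at 0.70. These differences share the WT values, so likeness over them is no independent measure.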

How the data were processed

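RNA-seq of whole liver and isolated hepatocytes of 4 genotypes was used, 3 replicates in each of 8 groups. Per the submitters' processing notes, the authors used FastQC, the mm9 build and Cuffdiff. Per the file headers, the authors deposited 1 table per preparation, with 1 value per gene and genotype, a log2 fold change, a test statistic (a score, not used here), a p-value and a q-value for each pair of genotypes. The smallest p-value in each deposited table is 5e-05. Replicates were pooled by the authors, so library depth is unknown and no replicate error or paired test can be computed. The headers name no unit for the values. They are FPKM by the convention of Cuffdiff. Which aligner and which program version were used is not given in the sources used here.

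Differences of log2(value + 1) were computed from the deposited values with Python 3.11.15, pandas 2.3.3 and numpy 2.4.6, and checked on simulated data. Loci with the status for too abundant data were treated as missing. The test used is the authors' q-value. The members and gene lists were chosen with earlier results of these data known. Up to 4 genes per pathway list were named, those with the smallest q among genes called in any comparison. Patterns were compared for the members called against WT most often. Promoter windows of 250 bases came from RefSeq for GRCm38.p6. Alternatives were a pseudocount of 0.1 or none, no filter or a value of at least 1, q under 0.01, a log2 difference of at least 1, adjustment within each comparison and centring on the median gene.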

Additional observations from a re-analysis of the deposited data

How the results depend on the processing

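The members' differences kept their direction with a pseudocount of 0.1, with none and after centring on the median gene, in 104 of 104 values each, and counts of members called were the same without the filter or with a value of at least 1 in all 11 comparisons. The median of Double KO minus the sum of the single knockouts was -0.93 in liver and -0.50 in hepatocytes with a pseudocount of 0.1. The middle 90% of all genes then began at -0.73 in liver and -1.04 in hepatocytes, which put Acly in liver and Acaca in hepatocytes inside it. With q under 0.01, members called numbered 0 in Shp2 KO against WT liver, 2 in Shp2 KO against IkkB KO liver, 1 in Shp2 KO against WT hepatocytes and 2 in Double KO against Shp2 KO hepatocytes. Other pathway genes then numbered 0 in IkkB KO against WT liver, 5 in Double KO against Shp2 KO liver, 5 in Shp2 KO against IkkB KO liver, 1 in IkkB KO, 7 in Shp2 KO against WT hepatocytes, and 5 and 2 in Double KO against IkkB KO and Shp2 KO hepatocytes. With p-values adjusted within each comparison, pathway genes numbered 0 in IkkB KO liver, 1 in IkkB KO hepatocytes and 2 in Double KO against Shp2 KO hepatocytes, where members numbered 2. Calls of members lost by it were Elovl5 in IkkB KO and Srebf1 in Shp2 KO hepatocytes against WT, and Srebf1 and Elovl5 in Double KO against Shp2 KO hepatocytes. With a log2 difference of at least 1 required as well, members called numbered 4 in Double KO against WT liver (Mlxipl, Fasn, Thrsp and Elovl3), 0 in Shp2 KO against WT liver, 2 in Double KO against Shp2 KO liver, 1 in Shp2 KO against IkkB KO liver, 1 in IkkB KO and 1 in Shp2 KO hepatocytes, and 2 in Double KO hepatocytes against WT and 2 against Shp2 KO. The falls of Srebf1, Acly, Acaca and Elovl6 in Double KO liver were therefore called below that size. These counts follow from the stricter rules themselves. No paired analysis was possible because the deposited tables hold 1 pooled value per genotype and no column for a replicate, and leaving out each replicate was not run for the same reason.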
